A study of Homo sapiens with 6 samples.

Results

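The miR-99/100, miR-10 and miR-125 families were followed in HuCCT1 cells through 8 array probes, taken by name (hsa-miR-99a-5p, hsa-miR-99b-5p, hsa-miR-100-5p, hsa-miR-10a-5p, hsa-miR-10b-5p, hsa-miR-125a-5p, hsa-miR-125b-5p and hsa-miR-125a-3p, written below without the species prefix), out of 2555 human miRNA probes on the array. HuCCT1 is an established human cholangiocarcinoma (CCA) cell line. Control cells (0 ng/ml TGF-β) were compared with cells given 10 ng/ml TGF-β, a cytokine that induces epithelial-mesenchymal transition (EMT), each for 72 h and with 3 arrays per group. Both groups are of this single line, and nothing in the sources states that the 3 samples of a group came from separate cultures, so p-values measure the spread between these samples.

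MiRNAs guide the silencing complex to mRNAs chiefly by pairing through their seed, bases 2 to 8 from the 5′ end, so that miRNAs with a common seed are treated as a family. The miR-10 and miR-99/100 families descend from an ancient miRNA that is still found in Hox gene clusters, where miR-10a and miR-10b lie. MiR-99 and miR-100 genes lie with let-7 and miR-125 genes in clusters that are copies of each other. MiR-99 and miR-100 are known to repress mTOR, miR-125b is known to repress p53, and miR-10b is known for its part in the invasion of breast cancer cells.

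The mature sequences show which members can act on the same targets and how little separates their probes. They are taken from RefSeq (GRCh38.p14), which matched 7 of the 8 members and gave no entry for miR-10b-5p. They are written 5′ to 3′ with the seed in capitals.
miR-99a-5p: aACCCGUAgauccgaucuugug
miR-100-5p: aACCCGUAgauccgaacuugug
miR-99b-5p: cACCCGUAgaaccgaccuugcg
miR-10a-5p: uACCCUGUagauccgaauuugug
miR-125a-5p: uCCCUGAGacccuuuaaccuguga
miR-125b-5p: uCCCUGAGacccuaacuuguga
miR-125a-3p: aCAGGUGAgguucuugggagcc

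The 3 miR-99/100 sequences share the seed ACCCGUA, and no other mature miRNA in the RefSeq table had it. With positions counted from 1 at the 5′ end, miR-99a-5p and miR-100-5p differ by 1 substitution of 22 bases (U16A, miR-99a-5p first), and miR-99b-5p differs from miR-99a-5p by 4 (A1C, U11A, U16C and U21C, miR-99a-5p first). MiR-10a-5p has the seed ACCCUGU, and it shares with miR-100-5p a run of 11 bases, guagauccgaa, which begins inside the seed, at base 7 of miR-10a-5p and base 6 of miR-100-5p. MiR-125a-5p and miR-125b-5p are identical over their first 13 bases and share the seed CCCUGAG with miR-4319, which was not detected on any array. MiR-125a-3p comes from the opposite arm of the miR-125a precursor and has the seed CAGGUGA. How far the probe of one relative also captures another was not tested.

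The 5p members come from 5 places in the genome (GRCh38.p14, RefSeq). MIR99A (chr21:16539089-16539169) lies with MIRLET7C and MIR125B2 (chr21:16590237-16590325) within the long non-coding host gene MIR99AHG. MIR100 (chr11:122152229-122152308) lies with MIRLET7A2 and MIR125B1 (chr11:122099757-122099844) within MIR100HG. These clusters span 51.2 and 52.6 kb. MIR99B (chr19:51692612-51692681), MIRLET7E and MIR125A (chr19:51693254-51693339) lie within 728 bases, inside the gene SPACA6. MIR10A (chr17:48579838-48579947) overlaps HOXB3, and MIR10B (chr2:176150303-176150412) overlaps no other gene in the table. The table gives whole genes, so exons and introns are not stated. MiR-125b-5p is the same molecule from MIR125B1 and MIR125B2, and its probe reads both.

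Across the series, 327 to 464 human probes per array were detected, meaning brighter than the mean of the 229 blank spots by more than 2 of their SDs, and 323 miRNAs are called expressed because the 3 arrays of one group or of both all detected them. Of 6 epithelial marker miRNAs (the miR-200 family and miR-205-5p), 5 were detected on all 6 arrays, while 2 hepatocyte markers, 5 stromal markers and 2 endothelial markers were detected on none and 1 of 6 blood markers was detected on a single array, that of TGF-β array 3. The summed normalized signal of the epithelial markers was 413 to 483 in controls, against 518 to 543 with TGF-β. The markers did not move as a set. Their log2 change was above 0 for 4 and below 0 for 2, where 51.1% of expressed miRNAs were above 0. It ran from -0.65 (miR-141-3p) to 0.40 (miR-200c-3p). The part of the summed signal in the results below was not tested. No label states the chip of an array. It was inferred from an identifier that the deposited files of the control arrays and TGF-β array 1 share and that differs from the one of TGF-β arrays 2 and 3, so chip, if rightly inferred, and treatment overlap in part. Values on the first chip set TGF-β array 1 alone against the 3 controls, and the spread behind their p-values comes from the controls only.

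All 8 members were detected on all 6 arrays, at 5.33 (miR-10b-5p, TGF-β array 1) to 171 (miR-125b-5p, TGF-β array 2) SDs of the blank spots above their mean. None passed the threshold for a change with TGF-β (limma, 0 of 8 at an adjusted p under 0.05, with adjusted p between 0.69 and 0.99), and the same was true of all expressed miRNAs (0 of 323, 0%). At an unadjusted p under 0.05 there was 1 member, miR-125b-5p, against 21 of 323 expressed miRNAs (6.5%). The methods' t-test gave 1 member and 21 of 323 expressed miRNAs at an unadjusted p under 0.05, and 0 members after Benjamini-Hochberg adjustment. With the array number as a replicate block, an unadjusted p under 0.05 was found for 0 members and 31 of 323 expressed miRNAs. The log2 change was above 0 for 7 of the 8 members, against 51.1% of all expressed miRNAs, and below 0 for 1, against 48.9%. On the first chip alone it was above 0 for 4 of the 8 members, against 56.7% of all expressed miRNAs, and with chip as a fixed block for 4 of 8, against 55.4%. Its median was 0.31 over the members and 0.01 over all expressed miRNAs. The control and TGF-β arrays did not overlap for 2 members, miR-125b-5p and miR-10a-5p (overlapping in the authors' values), both higher with TGF-β, where 9.91% of expressed miRNAs had no overlap and 7.12% had none with TGF-β higher. No member had a ratio of means above 1.5, where 4.64% of expressed miRNAs did, or below 0.67, where 2.79% did. These counts depend on the setting. With no scaling 7 members had ratios of 1.56 to 2.11, where the median log2 change of all expressed miRNAs was 0.66 and 96.9% were above 0. With local background subtracted, which set 14 of the 48 member signals to the lowest value, ratios were 1.98 (miR-99a-5p), 1.99 (miR-99b-5p) and 295 (miR-100-5p). They were 3.71 (miR-10a-5p), 5.88 (miR-10b-5p), 1.59 (miR-125b-5p), 0.43 (miR-125a-5p) and 0.99 (miR-125a-3p) there. MiR-125a-3p had a ratio of 0.595 in the authors' values, 0.609 when arrays were scaled by their own detected probes and 0.496 on the first chip alone. Leaving out 1 array also took miR-100-5p (1.74 without TGF-β array 1, 1.53 without control array 2), miR-99a-5p (1.58 without TGF-β array 1) and miR-125a-3p (0.494 without TGF-β array 3) past a threshold. The share of all expressed miRNAs past these ratios was counted only for the reported setting, so these crossings have no background beside them.

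**Figure D1:**
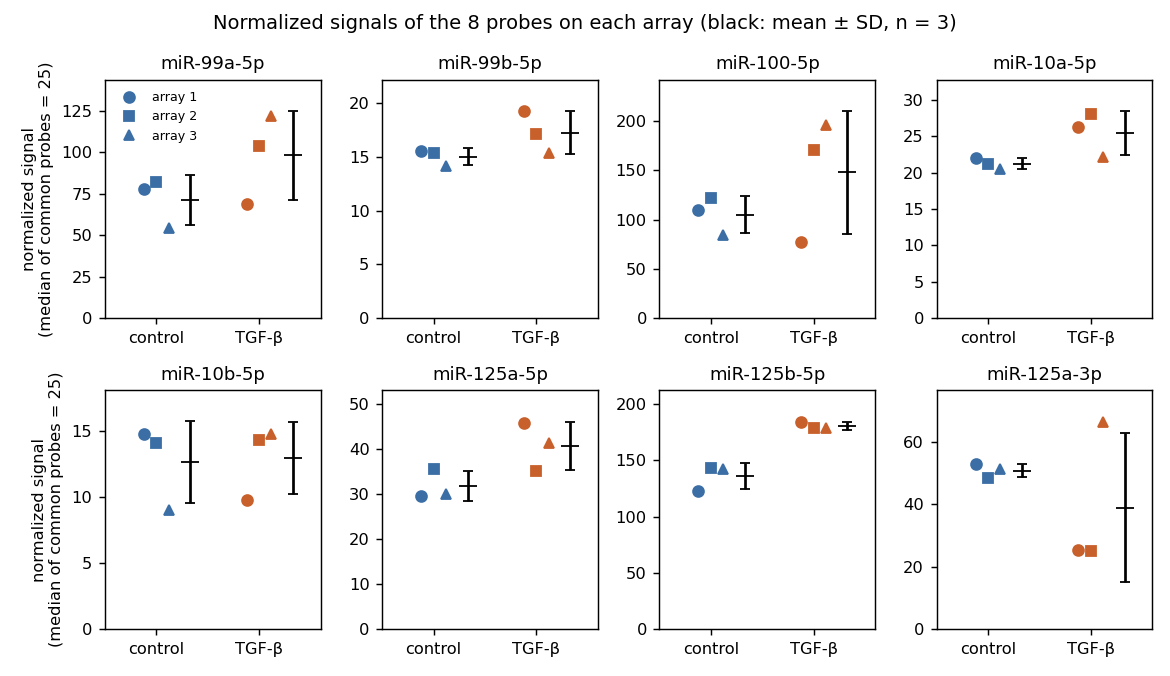
Normalized signal (linear scale, common probes set to a median of 25) of each of the 8 probes, with 1 point per array, symbols for the array number and the mean ± SD (n = 3) in black. The control and TGF-β points are separate for miR-10a-5p and miR-125b-5p, and miR-125a-3p has 2 TGF-β arrays at 24.99 and 25.2 and 1 at 66.6.

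Within the miR-125 family, miR-125b-5p had a normalized signal of 123, 143 and 142 without the cytokine and of 185, 179 and 179 with it (arrays 1, 2 and 3 in turn). At this scaling each TGF-β array lay above each control array, and the TGF-β arrays lay close together. The mean was 136 ± 11.5 (SD, n = 3) in controls and 181 ± 3.39 (SD, n = 3) with TGF-β, a ratio of 1.33. The log2 change was 0.41 (by limma, adjusted p = 0.69, SE 0.17, 95% interval 0.01 to 0.81), and the 2-sided exact permutation test gave p = 0.10, the smallest p that 3 arrays against 3 allow. On the first chip alone the log2 change was 0.45 (limma adjusted p = 0.60). MiR-125b-5p had the 11th narrowest spread between arrays of a group among the 323 expressed miRNAs, with a pooled SD of 0.09 on the log2 scale, against a median of 0.29. In the authors' normalized values its groups overlapped, at 323, 208 and 258 without the cytokine and 247, 395 and 245 with it.

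MiR-125a-5p, its seed relative from chromosome 19, had a normalized signal of 29.6, 35.6 and 30.0 without the cytokine and of 45.8, 35.1 and 41.2 with it (arrays 1, 2 and 3 in turn). TGF-β arrays 1 and 3 lay above all controls and TGF-β array 2 lay just under control array 2. The mean was 31.7 ± 3.38 (SD, n = 3) in controls against 40.7 ± 5.38 (SD, n = 3) with TGF-β, with a log2 change of 0.36 (by limma, adjusted p = 0.81, SE 0.19). Counted within each array, the difference between miR-125a-5p and miR-125b-5p changed by -0.06 on the log2 scale (standard error 0.12), less than its spread between arrays (exact permutation test, p = 0.60).

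The opposite arm, miR-125a-3p, was the only member with a lower mean. Its normalized signal was 52.8, 48.5 and 51.2 without the cytokine and 25.2, 24.99 and 66.6 with it. The first 2 of these TGF-β arrays had about the same level, well under the controls, while TGF-β array 3 was the highest of all 6. The mean was 50.8 ± 2.21 (SD, n = 3) in controls against 38.9 ± 24.0 (SD, n = 3) with TGF-β, with a log2 change of -0.55 (by limma, adjusted p = 0.93, SE 0.37). The value rests on single arrays: without TGF-β array 3 the log2 change was -1.02 (limma adjusted p = 0.11), while leaving out TGF-β array 1 gave -0.32 and leaving out TGF-β array 2 gave -0.31. Within arrays, the log2 signal of miR-125a-5p minus that of miR-125a-3p was -0.84, -0.45 and -0.77 in the controls, and with TGF-β it was 0.86, 0.49 and -0.69. TGF-β arrays 1 and 2 lay above all controls in this difference and TGF-β array 3 lay among them. The change in it was 0.91 (standard error 0.48), with p = 0.20 by the exact permutation test and 1 after Benjamini-Hochberg adjustment over 9 pairs. Its direction turned with normexp background correction (-0.21) and with the subtraction of local background (-1.38).

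In the miR-99/100 family, miR-100-5p had a normalized signal of 109, 121 and 84.3 without the cytokine and of 77.5, 170 and 196 with it (arrays 1, 2 and 3 in turn). TGF-β arrays 2 and 3 lay above all controls and TGF-β array 1 lay below all of them. The mean was 105 ± 19.0 (SD, n = 3) in controls and 148 ± 62.3 (SD, n = 3) with TGF-β, with a log2 change of 0.40 (by limma, adjusted p = 0.99, SE 0.35). It was 0.81 without TGF-β array 1, 0.15 without TGF-β array 3 and 0.25 when either control array 3 or TGF-β array 2 was left out, and on the first chip alone it turned to -0.42 (limma adjusted p = 0.71).

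MiR-99a-5p ordered the arrays as miR-100-5p did except that control array 3 was the lowest, at a normalized signal of 77.8, 82.2 and 54.3 without the cytokine and of 69.1, 104 and 122 with it. The control and TGF-β arrays overlapped, with TGF-β array 1 between the controls. Its mean was 71.4 ± 14.98 (SD, n = 3) in controls against 98.3 ± 26.7 (SD, n = 3) with TGF-β, a log2 change of 0.44 (by limma, adjusted p = 0.88, SE 0.27), which was -0.02 on the first chip alone. It was 0.68 without TGF-β array 1, and leaving out control array 3 or TGF-β array 3 gave 0.26 or 0.27.

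MiR-99b-5p, the third bearer of the seed, had a normalized signal of 15.5, 15.4 and 14.2 without the cytokine and of 19.3, 17.2 and 15.4 with it (arrays 1, 2 and 3 in turn). TGF-β array 3 lay just under control arrays 1 and 2, and the other TGF-β arrays lay above all controls. The log2 change was 0.20 (by limma, adjusted p = 0.99, SE 0.18). It was 0.11 without TGF-β array 1 and turned to -0.065 in the authors' values. Its spread was narrow, with a pooled SD of 0.13 on the log2 scale against 0.54 for miR-100-5p and 0.38 for miR-99a-5p.

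Of the miR-10 pair, miR-10a-5p had a normalized signal of 22.03, 21.2 and 20.5 without the cytokine and of 26.2, 28.1 and 22.1 with it (arrays 1, 2 and 3 in turn). All TGF-β arrays lay above all controls, TGF-β array 3 by the smallest step. The mean was 21.2 ± 0.77 (SD, n = 3) against 25.5 ± 3.03 (SD, n = 3), with a log2 change of 0.26 (by limma, adjusted p = 0.97, SE 0.18; exact permutation test, p = 0.10). In the authors' normalized values its groups overlapped, at 58.2, 31 and 37.1 without the cytokine and 35.1, 62.2 and 30.4 with it. MiR-10b-5p, from chromosome 2, had a normalized signal of 14.8, 14.1 and 9.07 without the cytokine and of 9.81, 14.4 and 14.8 with it (arrays 1, 2 and 3 in turn). Each group had 2 arrays near 14 to 15 and 1 near 9 to 10, and the log2 change was 0.05 (by limma, adjusted p = 0.99, SE 0.26, 95% interval -0.56 to 0.65). On the first chip alone the change of miR-10b-5p was -0.33. Leaving out control array 1, 2 or 3 gave 0.17, 0.14 and -0.18, and leaving out TGF-β array 1, 2 or 3 gave 0.24, -0.04 and -0.06.

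**Figure D2:**
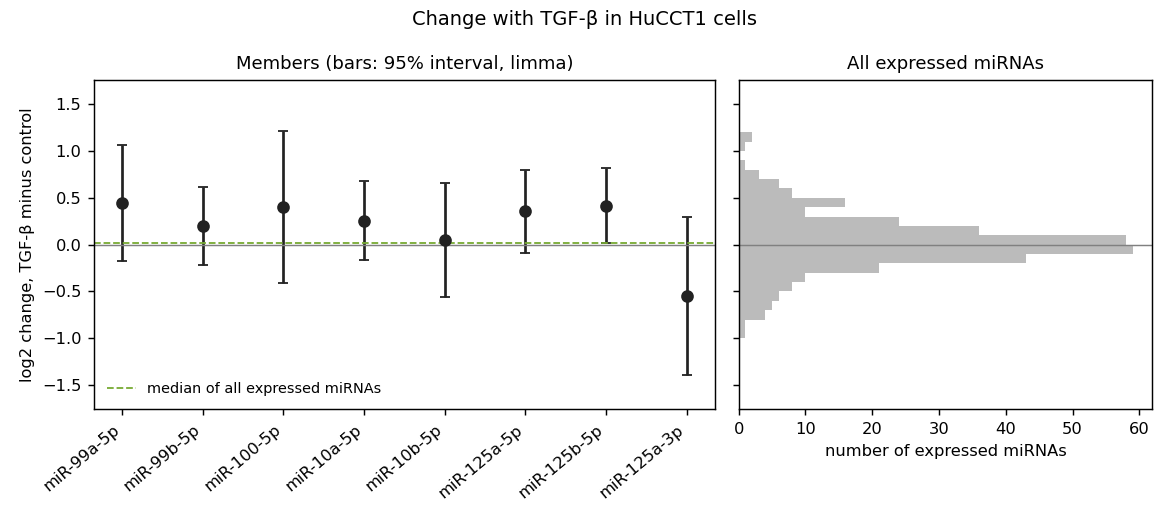
Left, log2 change (TGF-β minus control) of each member with its 95% interval from limma, beside the median of all expressed miRNAs (dashed). Right, the number of expressed miRNAs at each log2 change on the same axis. The interval of miR-125b-5p starts at 0.01 and those of the other 7 members include 0.

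A difference between 2 probes of the same array does not depend on how arrays are scaled. Such differences were compared for 9 pairs: 5 pairs of seed or family relatives, 3 pairs of cluster neighbours and both arms of miR-125a. None separated the groups, all had an adjusted p of 1 (exact permutation test, Benjamini-Hochberg over the 9 pairs), and at 3 arrays against 3 none could have gone below an unadjusted 0.10. The pair with the smallest change was miR-100-5p minus miR-125b-5p, the ends of the chromosome 11 cluster, at -0.01 on the log2 scale, but its values ran from -1.25 to 0.13 on the TGF-β arrays and its standard error was 0.47. The cluster neighbours miR-99b-5p and miR-125a-5p differed by -1.07 ± 0.14 (SD, n = 3) on control arrays and by -1.23 ± 0.20 (SD, n = 3) on TGF-β arrays, a change of -0.16 (standard error 0.14).

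**Figure D3:**
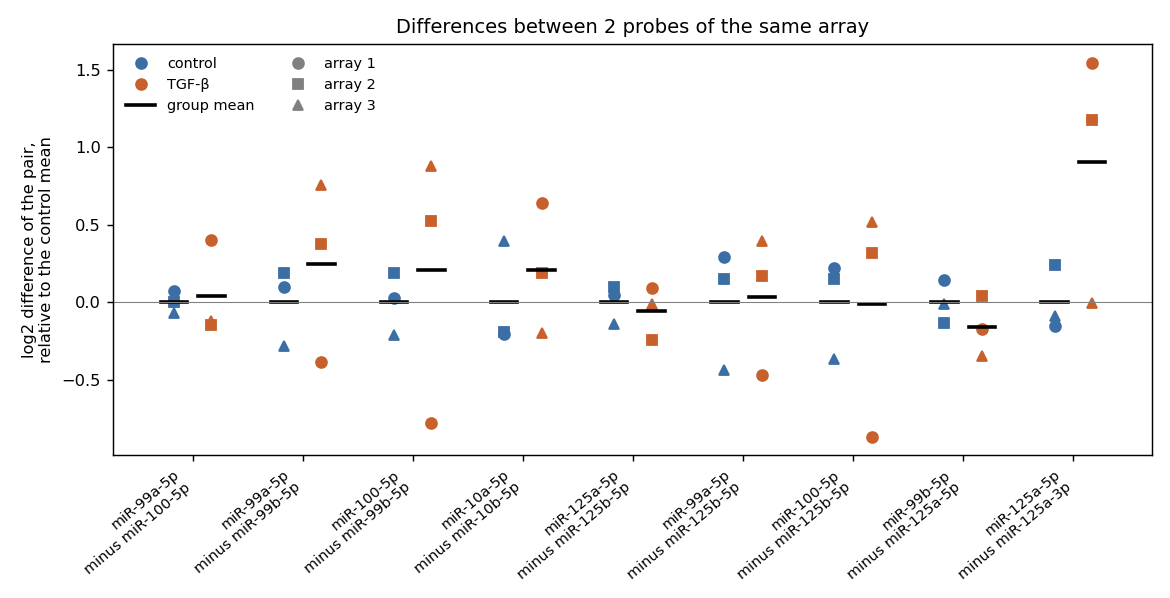
Log2 difference between the 2 probes of each pair on each array, less the mean of the control arrays, with symbols for the array number and bars for the group means. TGF-β array 1 is the lowest of the 6 arrays in the 4 pairs that set miR-99a-5p or miR-100-5p against miR-99b-5p or miR-125b-5p, and the group means of the arms of miR-125a lie 0.91 apart.

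When each member was centred on its own mean over the 6 arrays, miR-99a-5p, miR-100-5p and miR-10b-5p, which do not share a seed or a cluster as a group, lay low together on control array 3 (-0.59, -0.50 and -0.47 on the log2 scale) and on TGF-β array 1 (-0.25, -0.62 and -0.36). The other four 5p members stayed within -0.35 to 0.36 of their means. The root mean square difference between 2 such profiles, over 6 arrays, was 0.18 for miR-99a-5p and miR-100-5p, 0.13 for miR-125a-5p and miR-125b-5p, and 0.09 for miR-99b-5p and miR-10a-5p, which have different seeds. It was 0.33 for the relatives miR-10a-5p and miR-10b-5p, and 0.39 and 0.53 for miR-99b-5p against its seed relatives miR-99a-5p and miR-100-5p. These values do not rank the pairs by likeness, because the members differ in how far they stand from other miRNAs. The median difference to 284 non-member miRNAs was 0.26 for miR-99b-5p, 0.27 for miR-10a-5p and 0.34 for miR-125a-5p and miR-125b-5p. It was 0.38 for miR-10b-5p, 0.46 for miR-99a-5p and 0.56 for miR-100-5p. These groupings were seen in the data, and scaling, array and chip are common to all the profiles.

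**Figure D4:**
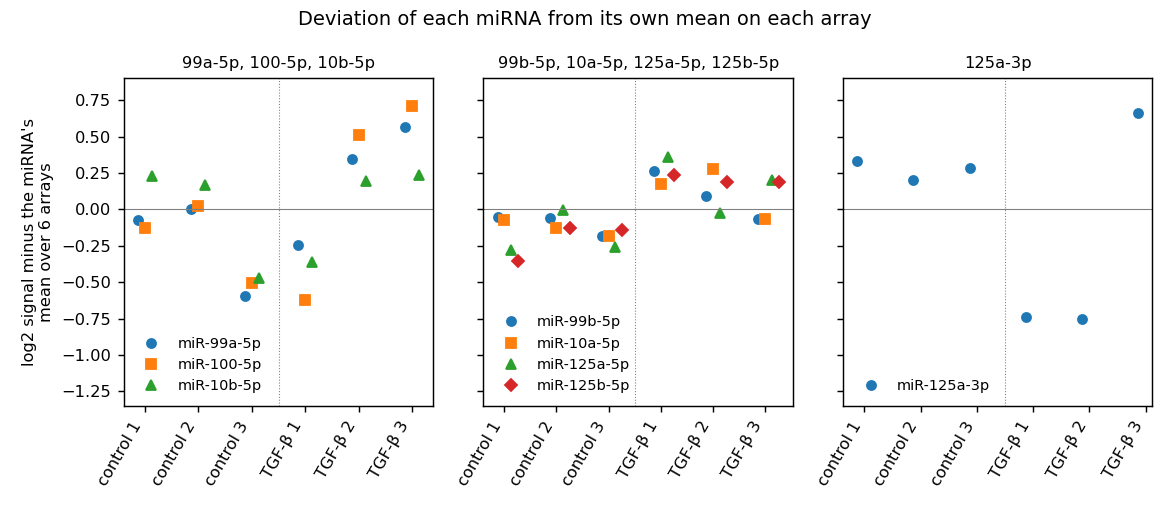
Log2 signal of each member on each array less its own mean over the 6 arrays, with the members grouped by likeness after their values were seen. The first panel is low on control array 3 and TGF-β array 1, the second lies within 0.36 of 0, and miR-125a-3p is low on TGF-β arrays 1 and 2, at -0.74 and -0.75.

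Among the 284 other miRNAs detected on all arrays, the closest profiles were those of miR-22-3p for miR-125a-5p (root mean square difference 0.04), miR-4508 for miR-99b-5p (0.04), miR-28-5p for miR-125b-5p (0.05), miR-6876-5p for miR-10a-5p (0.08), let-7b-5p for miR-99a-5p (0.09), let-7c-5p for miR-10b-5p (0.12) and miR-151a-5p for miR-100-5p (0.16). The next closest were miR-200b-3p (0.07), miR-4291 (0.08), miR-23a-3p (0.08), miR-4508 (0.09), miR-26a-5p (0.12), miR-4689 (0.14) and let-7d-5p (0.16), in the same order of members. For miR-125a-3p the 2 closest were miR-4454 (0.19) and miR-30e-5p (0.22), where the median over the 284 was 0.63. Their log2 changes were -0.59 and -0.41, beside its own -0.55. Profiles were matched on the same 6 arrays that give these changes, so near values follow from the choice and are no separate likeness.

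Of the 13 cluster partners and opposite arms that go with these families, 3 were detected on all arrays, the let-7 members let-7a-5p, let-7c-5p and let-7e-5p, and the other 10, all of them 3p arms, were detected on none. MiR-125a-3p was thus the only 3p arm of these precursors that could be measured. The expressed partners had log2 changes of 0.62 (let-7a-5p), 0.18 (let-7c-5p) and 0.12 (let-7e-5p), with limma adjusted p between 0.72 and 0.99, and in each the groups overlapped. Let-7a-5p had a normalized signal of 182, 174 and 101 without the cytokine and of 163, 254 and 284 with it (arrays 1, 2 and 3 in turn), low on control array 3 and TGF-β array 1 like its chromosome 11 neighbour miR-100-5p. The pattern is not particular to that cluster. Let-7b-5p, outside these clusters, was also the lowest of its group on control array 3 (80.5) and TGF-β array 1 (122), and miR-125b-5p was not. The let-7a-5p probe reads the product of 3 precursors, of which only MIRLET7A2 is in the chromosome 11 cluster. All 9 members of the let-7 family with miR-98-5p were expressed. The log2 change was above 0 for 7 of the 9, against 51.1% of all expressed miRNAs, with a median of 0.12 against 0.01. By limma, 0 of 9 passed the adjusted threshold (0% of all expressed miRNAs) and 0 of 9 had an unadjusted p under 0.05 (6.5%).

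The level at which the arrays are set equal moved all members together. In the authors' own normalized values, the mean signal of miR-125b-5p went from 263 to 296 and that of miR-125a-3p from 101 to 60.1, ratios of 1.12 and 0.595, and 4 of the 8 members had a log2 change above 0. When arrays were scaled by their own detected probes, 5 of 8 were above 0, and with no scaling 8 of 8 were. The median over all expressed miRNAs moved as well, to -0.27, -0.20 and 0.66 in these settings, and the share of expressed miRNAs above 0 moved to 16.9%, 20.4% and 96.9%. Relative to that median, miR-125b-5p was higher by 0.40 on the log2 scale as reported, 0.42 in the authors' values, 0.27 after quantile normalization and 0.14 with normexp background correction. MiR-125a-3p stood at -0.56, -0.54 and -0.56 in the first 3 of these, and at 0.15 with normexp.

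The normexp correction uses the local background deposited beside each spot and adds an offset of 50 to the corrected brightness before scaling. The parts of the background and of the offset in the normexp values were not tested apart. Over the 48 spots of the members on the 6 arrays, the local background had a median of 85.9% of the spot brightness and exceeded the spot on 14, among them 5 of 6 for miR-100-5p and 3 of 6 for miR-99a-5p. Over all probes detected on every array, it exceeded the spot on 16.5% of spots.

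**Figure D5:**
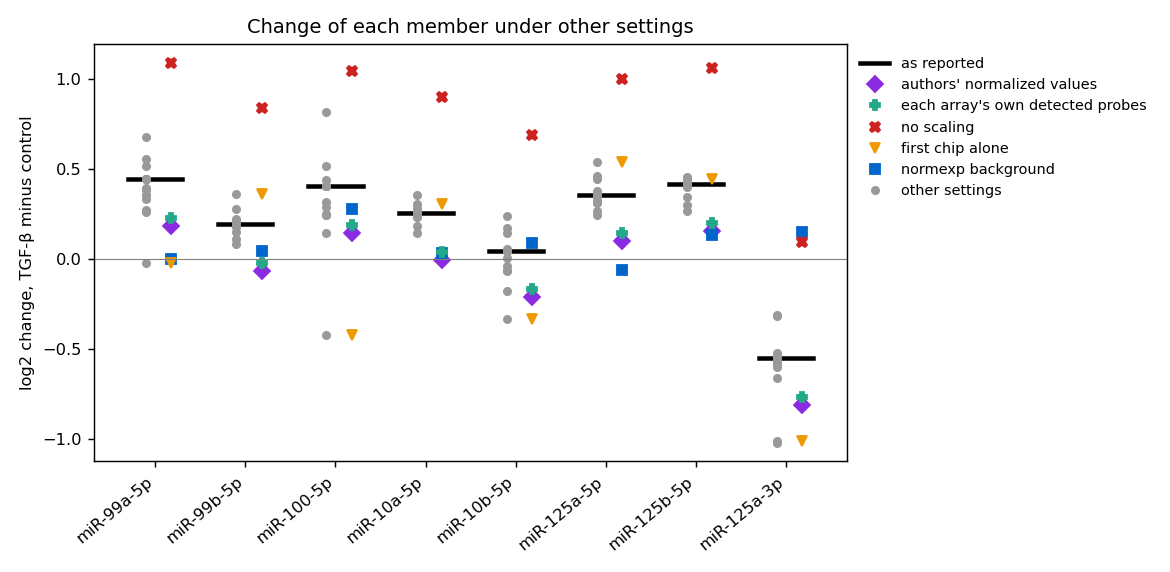
Log2 change (TGF-β minus control) of each member as reported (black bars) and under the other settings, without the subtraction of local background. MiR-125b-5p is above 0 under all settings shown, miR-125a-3p is below 0 in all but no scaling (0.09) and normexp (0.15), and miR-10b-5p lies on both sides of 0.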

How the data were processed

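Total RNA of 6 samples of HuCCT1 cells (3 control, 3 TGF-β) was labelled with Cy5 and hybridised by the authors to 3D-Gene human miRNA chips, 1 array per sample. The authors deposited, for each spot, the median intensity and a local background intensity, both linear and not normalized, and a table of normalized intensity values with a median of 25 on each array over the miRNAs listed. How they chose the listed miRNAs is not given in the sources used here. Groups and array numbers were taken from the sample titles.

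From the spot intensity, the mean of the 229 blank spots of the array was subtracted. Probes within 2 SD of it were not detected. A factor per array brought the median of the 292 probes detected everywhere to 25. Undetected signals were raised to the array's lowest detected one before taking log2, and spots with a failed flag (0 to 2 human probes per array) were left out. The 323 expressed miRNAs were compared with limma 3.58.1 in R 4.3.3 (lmFit, eBayes, Benjamini-Hochberg, threshold 0.05), tested on simulated data. Single values were compared by 2-sided exact permutation tests over 20 splits of the arrays. The number of arrays limits the precision.

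The members and lists were chosen with earlier results of these data known. Named were the members, their cluster partners and opposite arms, miRNAs with a member's seed, and the 2 closest profiles per member. Arrays with the same number deviated together from their group means (r = 0.12, 0.24 and 0.33 for numbers 1, 2 and 3, across 322 miRNAs, which are not independent). This was taken as a possible pairing and entered only as a replicate block among the alternatives. The reported limma and permutation values are unpaired. No source says what a number marks, and control array 1 correlated more with TGF-β array 2 (r = 0.44) than with TGF-β array 1. Alternatives were the authors' values, other backgrounds, scalings, filters and variance models, the methods' t-test, array number and chip (inferred from an identifier of the deposited files) as blocks, the first chip alone and leaving out each array.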

Additional observations from a re-analysis of the deposited data

How the results depend on the processing

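The 3 arrays per group leave log2 changes with standard errors of 0.17 to 0.37. Changes of the members below their standard error, and some above it, could not be told from the spread. The limma interval included 0 for miR-99a-5p (0.44, SE 0.27, interval -0.18 to 1.07) and miR-125a-3p (-0.55, SE 0.37, interval -1.39 to 0.30). Among the members, only the unadjusted interval of miR-125b-5p (0.41, SE 0.17, interval 0.01 to 0.81) left out 0. No member passed the adjusted threshold in the 23 other settings (limma, or the methods' t-test in 1), and 0 to 2 members had an unadjusted p under 0.05. Among all expressed miRNAs, 6 of 323 (local background) to 42 of 339 (without TGF-β array 3) had one. The number of expressed miRNAs past the threshold was 0, and 1 by the methods' t-test (miR-4521); with arrays left out it ran from 0 to 1, the 1 being miR-629-5p without TGF-β array 3 (limma adjusted p = 0.027; both names were chosen after their values were seen). With a replicate block for the pairing by array number, 0 members and 0 of the 323 expressed miRNAs passed (31 with an unadjusted p under 0.05), and the adjusted p of miR-125b-5p was 0.49. The block changed no adjusted call, but 0 members then had an unadjusted p under 0.05, against 1 (miR-125b-5p) without it.

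The median log2 change of the members was 0.31. It was lower in the authors' values (0.047), with normexp (0.068), when scaled by own detected probes (0.092), with chip as a fixed block and on the first chip alone (0.14 in both) and by the 75th percentile of common probes (0.19). It was 0.95 with no scaling and 2.35 with local background, which set 14 of the 48 member signals to the lowest value, and 0.22 to 0.35 with arrays left out. MiR-125b-5p was above 0 in all 23, but not all of these could change its sign. The filters and the t-test leave its value of 0.41 as it is, and chip as a fixed block repeats the estimate of the first chip alone. MiR-10b-5p turned to -0.21 in the authors' values, -0.17 when scaled by own detected probes, -0.067 by the 75th percentile of common probes and -0.33 with chip as a fixed block and on the first chip alone, and ran from -0.18 (without control array 3) to 0.24 with arrays left out. MiR-99b-5p turned to -0.065 in the authors' values and -0.020 with own detected probes, and miR-10a-5p to -0.0041 in the authors' values. MiR-99a-5p turned to -0.00060 with normexp and, like miR-100-5p (-0.42), was below 0 (-0.024) with chip as a fixed block and on the first chip alone. MiR-125a-5p turned to -0.060 with normexp and -1.71 with local background. MiR-125a-3p turned to 0.15 with normexp and 0.095 with no scaling. The cause was not tested.

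The differences between pairs moved by more than 1 SD between arrays as follows. With chip as a fixed block and on the first chip alone, where only TGF-β array 1 meets the controls, miR-99a-5p minus miR-100-5p was 0.40, miR-99a-5p minus miR-99b-5p was -0.39, miR-100-5p minus miR-99b-5p was -0.78, miR-10a-5p minus miR-10b-5p was 0.64, miR-99a-5p and miR-100-5p minus miR-125b-5p were -0.47 and -0.87, and miR-125a-5p minus miR-125a-3p was 1.55. With normexp, miR-99a-5p minus miR-100-5p was -0.28, miR-99b-5p minus miR-125a-5p was 0.10 and miR-125a-5p minus miR-125a-3p was -0.21. With local background, miR-99a-5p minus miR-100-5p was -0.40, miR-10a-5p minus miR-10b-5p was -1.89, miR-125a-5p minus miR-125b-5p was -4.01, miR-99b-5p minus miR-125a-5p was 4.22 and miR-125a-5p minus miR-125a-3p was -1.38.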
